A study of Mus musculus with 12 samples.

Results

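The 10 genes described here encode molecules with which leukocytes adhere to endothelium, and were taken from the count table by gene symbol: Vcam1, Icam1, Icam2, Sele, Selp, Selplg, Madcam1, Cx3cl1, Cx3cr1 and F11r. All 10 have a row among the 25284 genes of the table, and 9 passed the filter on low counts that kept 15857 genes for testing. RNA came from the thoracic aorta of male ApoE-/- mice on a C57BL/6 background, a strain without apolipoprotein E that develops atherosclerosis. All 12 mice ate a high fat, cholesterol enriched diet and carried subcutaneous osmotic minipumps, which gave 6 mice (called A1 to A6 here) a daily dose of 50 µmol/kg of AZ6983, an agonist of the receptor α7nAChR, over 8 weeks, and the vehicle, cyclodextrin in saline, to 6 controls (C1 to C6). The mice were 18 weeks old. The deletion is present in every cell and in both groups, so there is no group with intact Apoe, and the whole vessel wall with whatever tissue adhered to it was sequenced.

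Leukocytes enter a plaque in steps. E-selectin (Sele) and P-selectin (Selp) on endothelium slow passing cells by binding sugars on PSGL-1 (Selplg) of the leukocyte, after which VCAM-1, ICAM-1 and ICAM-2 hold the cells through integrins. Fractalkine (Cx3cl1) is a chemokine tethered to the membrane whose receptor, Cx3cr1, is carried by monocytes and macrophages, JAM-A (F11r) sits at endothelial junctions and on leukocytes and platelets, and MAdCAM-1 (Madcam1) belongs to vessels of the gut. Inflammatory cytokines raise Sele, Vcam1 and Icam1 through the transcription factor NF-kB, while Icam2 is made by resting endothelium.

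The promoters of Sele, Selp and Icam1 are shown for the way these 3 genes paired over the mice, by the test given further on. Over all 12 mice only the pair Icam1 and Selp passed it. Within each group the pairs with Sele also had high r, with the values given there. Each run is the 250 bases before the RefSeq start on GRCm38.p6, 5′ to 3′. Capitals mark matches on either strand to the NF-kB-like letters GGGNNNNNCC or GGANNTTCC, or to TATAAA.
Sele, chr1:164047984-164048233, plus strand: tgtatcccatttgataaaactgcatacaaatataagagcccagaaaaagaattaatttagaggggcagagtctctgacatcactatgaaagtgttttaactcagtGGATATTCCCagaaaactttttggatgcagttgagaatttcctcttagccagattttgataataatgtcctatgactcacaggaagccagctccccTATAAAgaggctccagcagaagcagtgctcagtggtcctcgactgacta
Selp, chr1:164115014-164115263, plus strand: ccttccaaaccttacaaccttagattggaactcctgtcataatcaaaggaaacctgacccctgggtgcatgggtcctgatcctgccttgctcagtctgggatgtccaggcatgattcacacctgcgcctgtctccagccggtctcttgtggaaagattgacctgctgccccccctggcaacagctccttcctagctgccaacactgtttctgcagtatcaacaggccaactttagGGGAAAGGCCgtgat
Icam1, chr9:21015690-21015939, plus strand: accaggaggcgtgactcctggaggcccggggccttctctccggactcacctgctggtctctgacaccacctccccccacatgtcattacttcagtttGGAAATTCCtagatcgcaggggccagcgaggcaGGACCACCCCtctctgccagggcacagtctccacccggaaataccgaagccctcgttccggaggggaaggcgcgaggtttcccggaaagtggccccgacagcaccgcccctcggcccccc
In Sele the match GGATATTCCC satisfied both NF-kB-like forms, which overlap there, and ended 135 bases before the start, with TATAAA ending 43 bases before it. Icam1 held GGAAATTCC, ending 144 bases before its start, and the longer form GGACCACCCC nearer to it. Selp held only the longer form, GGGAAAGGCC. Of 32851 promoter windows of this length, 45.8% held the form GGGNNNNNCC, 3.59% the form GGANNTTCC and 12.4% TATAAA. The motifs were chosen with the sequences in view, and a match is a description of letters. RefSeq promoters were at hand for 7 of the 10 genes, the others being Vcam1, Icam2 and Selplg.

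Counts on genes ran from 23810036 to 35864666 per mouse, and reads on no gene made up 8.02% to 12.7% of the table in controls and 11.2% to 14.9% in AZ6983 mice. Apoe, deleted in all mice, had 117 to 306 counts in controls and 214 to 311 in AZ6983 mice, and Chrna7, the gene of the receptor, 27 to 114 and 19 to 76 counts. Mouse A5 had a TMM factor (edgeR's scaling of library totals) of 0.837, against 0.987 to 1.07 in the others. Mouse A4 stood apart in T cell and thymocyte markers, with a score, the mean log2 CPM of the markers, of 6.39 against −1.45 to 1.94 in the other mice. CPM is the count relative to the library total scaled in this way, and log2 CPM adds a prior count of 2. The column used for A1 carries only 3 of the 4 digits in that animal's label. Nothing in the labels gives a batch, litter or pairing of the mice.

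Per kilobase of exon, Vcam1 was the most abundant of the 10 transcripts in controls, at 18.2 ± 3.80 CPM per kilobase (SD, n = 6), and Madcam1 was the scarcest. F11r followed with 14.0 ± 1.02 CPM per kilobase (SD, n = 6), Icam2 with 10.8 ± 1.104 and Icam1 with 8.22 ± 1.27. Cx3cl1, at 4.63 ± 1.28 CPM per kilobase, and Selp, at 3.49 ± 0.787, formed the middle of the order (SD, n = 6). Sele was at 1.99 ± 0.651, Selplg at 1.69 ± 0.368 and Cx3cr1 at 1.27 ± 0.511 CPM per kilobase in controls (SD, n = 6). Over the 12 mice the ranges of neighbours in this order overlapped, apart from Cx3cr1 and Madcam1. Within a mouse the order was steadier: F11r exceeded Icam2, Icam1 exceeded Cx3cl1 and Selp exceeded Sele in 12 of 12 mice, whereas Sele exceeded Selplg in 5 of 12. The lengths are the merged exons of GENCODE M21 on GRCm38, which need not be the annotation the authors counted with.

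**Figure D1:**
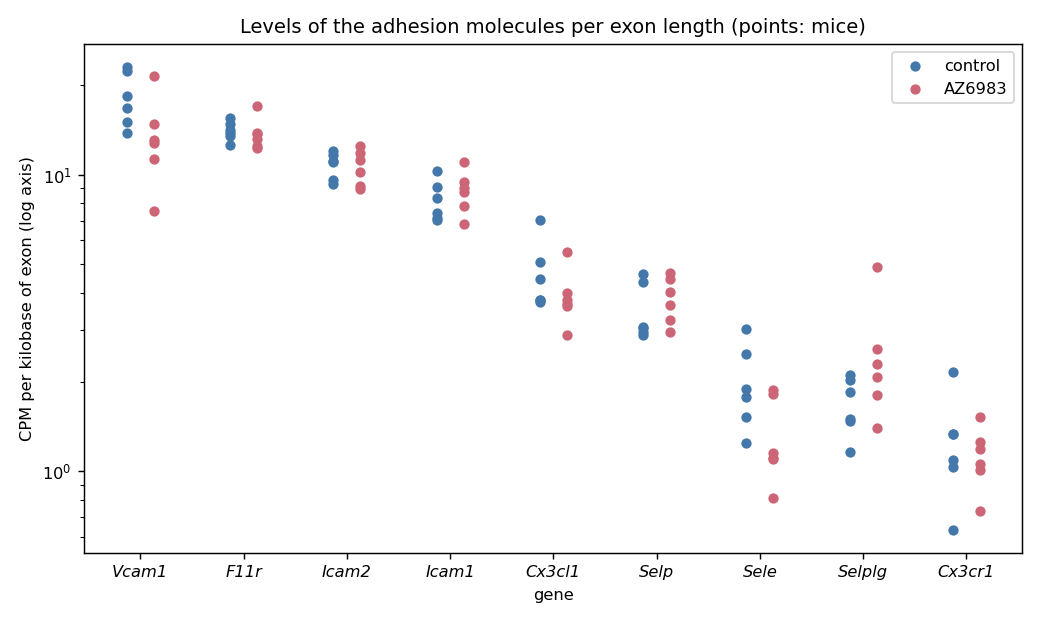
Level of each adhesion molecule per exon length (y axis, CPM per kilobase, log axis) for the 9 genes tested (x axis, ordered by the control mean), with 1 point per mouse. Vcam1 leads with a control mean of 18.2 and Cx3cr1 closes the order at 1.27. Neighbouring genes overlap.

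Between the groups, E-selectin and VCAM-1 transcripts were lower on average in AZ6983 mice and the leukocyte ligand Selplg was higher, but the groups overlapped for every gene. Differences are given as log2FC, the log2 fold change of AZ6983 over control. By the quasi-likelihood test of edgeR at 10% FDR, 0 of the 9 genes and 0 of all 15857 (0%) were called, while DESeq2 with its defaults called 92 genes (0.523%) and 0 of the members. At an unadjusted p under 0.05 edgeR gave 1 of the 9, Sele, which was lower, against 2.81% of all genes tested that were lower, 7.38% that were higher and 10.2% in either direction. Of the 9 genes, 6 had a log2FC below 0 and 3 above, where 47.6% and 52.4% of all genes tested did, and their median was −0.03, beside 0.01 over all genes tested. Without A4, 0 of the 9 had an unadjusted p under 0.05, against 9.49% of all genes in either direction and 2.45% that were lower. The count of members without overlap of the groups was 0, where 0.41% of all genes tested had none. Whole aorta was used, so fewer cells of a type cannot be told apart from less RNA in each cell.

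**Figure D2:**
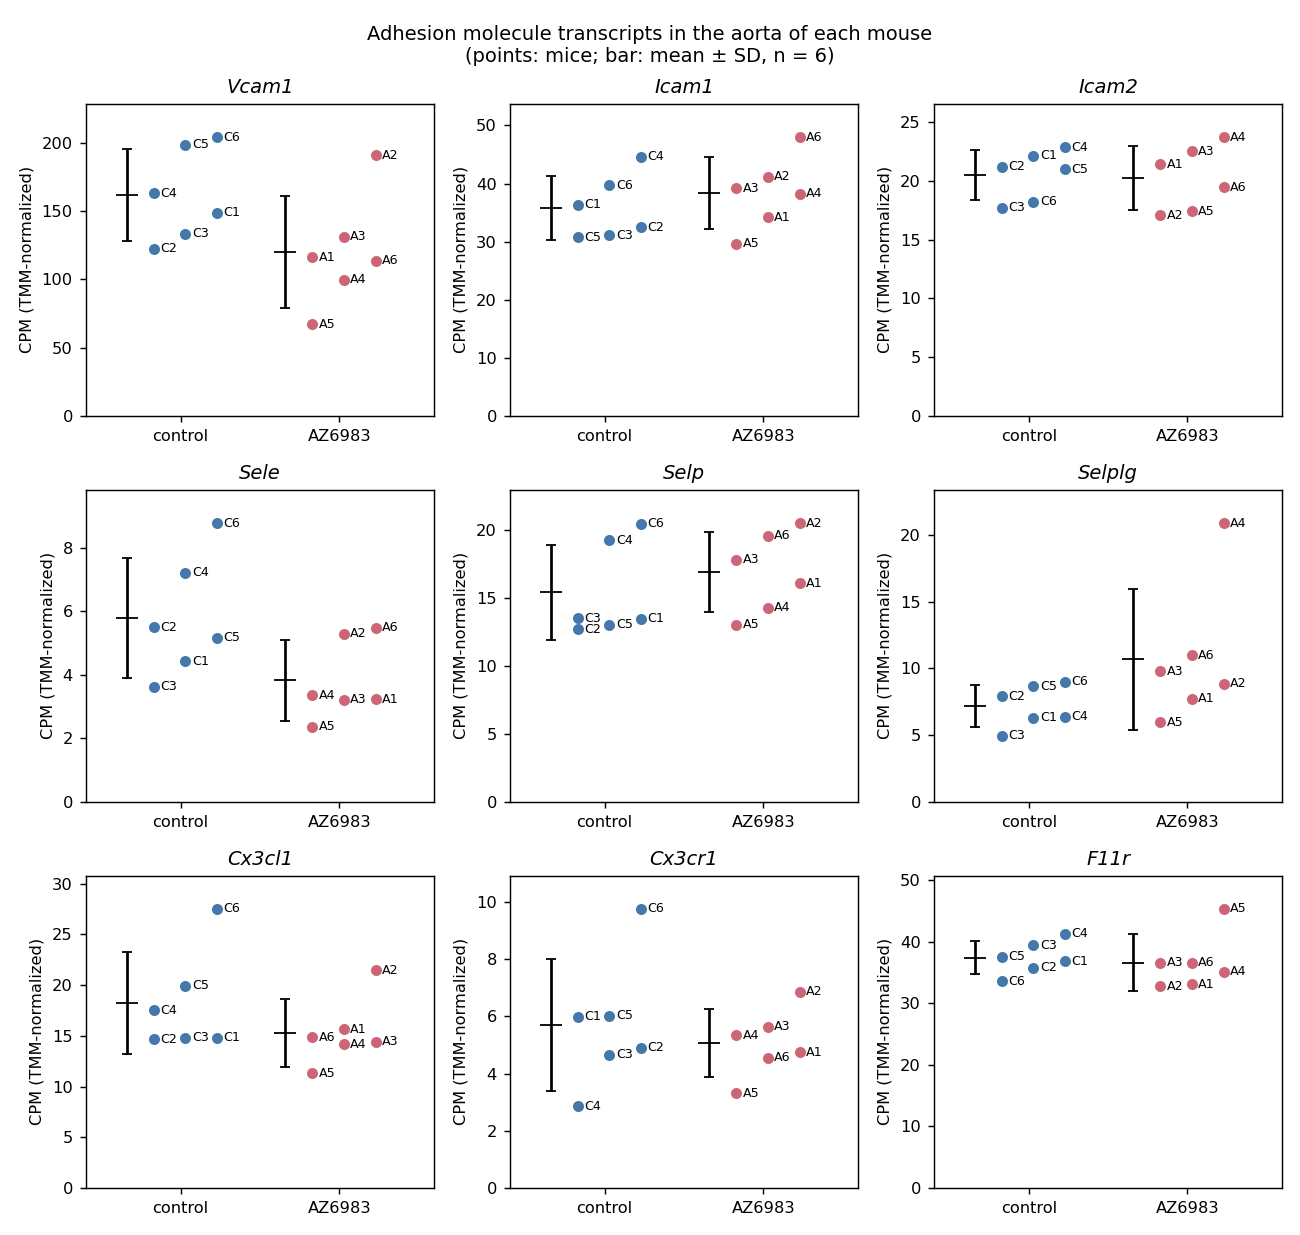
TMM-normalized CPM (y axes, from 0) of the 9 genes tested in each of the 6 control and 6 AZ6983 mice (x axes), with the mouse name beside each point and the mean ± SD as a bar. Sele has 4 AZ6983 mice below every control, Selplg has mouse A4 at 20.9, and the groups overlap in all panels.

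The selectins act in the first contact. Sele (chr1:164048234-164057677, plus strand) was at 3.62, 5.33 and 8.77 CPM (lowest, median and highest) in controls and at 2.37, 3.29 and 5.48 in AZ6983 mice, on 105 to 258 and 58 to 147 counts. Mice A1, A3, A4 and A5 lay below every control, while A2 and A6 lay within the controls. Sele had a log2FC of −0.60 (95% interval −1.14 to −0.05, standard error, SE, 0.251), with an adjusted p of 0.469 from edgeR. It stayed between −0.73 and −0.44 with any 1 mouse left out, the weakest value being that without C6, the control with the most Sele. With the endothelial marker score as a covariate it was −0.30 (SE 0.288). With the percentage of reads outside genes it was −1.06 (SE 0.348, adjusted p = 0.9998 from edgeR). Both covariates ran higher in AZ6983 mice than in controls, so these fits cannot fully separate them from treatment.

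Selp (chr1:164115264-164150026, plus strand), which is stored in endothelium and platelets, lies beside Sele on the chromosome and differed less. It was at 12.7, 13.5 and 20.4 CPM in controls and at 13.03, 16.9 and 20.5 in AZ6983 mice. Controls C4 and C6 lay above the other 4, and the AZ6983 mice were spread over the same range, with 5 of 6 above the control median. Its log2FC was 0.13 (95% interval −0.20 to 0.46, adjusted p = 0.762 from edgeR), and ran from 0.055 without A2 to 0.23 without C6. Of the 8 platelet markers 5 were higher at an unadjusted p under 0.05, beside 7.38% of all genes tested, with 0 at 10% FDR in edgeR. Gp1ba, 1 of the 5, had 2 to 6 counts in controls and 10 to 40 in AZ6983 mice. The low-count filter thus kept Gp1ba through the AZ6983 mice, and the paper lists it as higher by DESeq2. Platelet scores were 0.15 to 1.63 in controls and 0.40 to 4.24 in AZ6983 mice. The markers were not tested without A3. A3, the mouse with the highest platelet score, had 17.8 CPM of Selp, below A2 and A6.

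Selplg (chr5:113818536-113832644, minus strand) encodes the selectin ligand of leukocytes. It was at 4.97, 7.15 and 9.01 CPM in controls and at 5.96, 9.32 and 20.9 in AZ6983 mice. The highest value is that of A4, with 785 counts against 144 to 295 in the other mice, and A3 and A6 also lay above every control. Selplg had a log2FC of 0.57 (95% interval −0.00 to 1.15, SE 0.266), with an adjusted p of 0.492 from edgeR. Without A4 it was 0.26 (SE 0.178), with an adjusted p of 0.661 from edgeR. All 7 T cell and thymocyte markers tested were higher at an unadjusted p under 0.05, beside 7.38% of all genes tested, with 0 at 10% FDR. Their score was −1.45 to 1.83 in controls, 6.39 in A4 and −0.47 to 1.94 in the other AZ6983 mice. Only 1 AZ6983 mouse lay above every control for Cd3d, Cd3g, Cd4 and Lck, and 2 for Cd8a, Dntt and Rag1. The AZ6983 median was below the control median for Lck, Rag1 and Cd8a, and above it for Cd3d, Cd3g, Cd4 and Dntt. These markers were not tested without A4, so the 7 cannot be read as a difference shared by the AZ6983 mice. Cd3e and Ptcra of that list did not pass the filter. The 3 mice above every control in Selplg also had the highest neutrophil scores, 3.91 in A6, 3.19 in A3 and 2.73 in A4, where controls were at 0.55 to 1.98 and the other AZ6983 mice at 1.40 to 2.66. All 9 neutrophil markers were higher at an unadjusted p under 0.05, beside 7.38% of all genes tested, with 0 of 9 at 10% FDR in edgeR. By DESeq2 at 10% FDR, the paper lists Ltf, Ngp, Csf3r, Cd177 and Camp of these markers as higher. The part of either cell type in the Selplg values was not tested beyond leaving out A4 and the relation with the T cell and thymocyte score given below.

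Of the integrin ligands, Vcam1 (chr3:116109949-116129688, minus strand) showed the largest difference among Vcam1, Icam1 and Icam2. It was at 122, 156 and 204 CPM in controls and at 67.0, 115 and 191 in AZ6983 mice, on 1641 to 6002 counts per mouse. Mice A1, A4, A5 and A6 lay below every control, A3 lay within the lower controls, and A2 lay among the highest. This gave a log2FC of −0.43 (95% interval −0.89 to 0.02, SE 0.210), with an adjusted p of 0.503 from edgeR. Without A5, the lowest mouse, it was −0.33, and without A2 it was −0.63. With the endothelial score as a covariate it was −0.04 (SE 0.184).

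Icam1 (chr9:21015985-21028817, plus strand), which binds leukocyte integrins that contain Itgb2, was at 30.8, 34.4 and 44.6 CPM in controls and at 29.7, 38.7 and 48.0 in AZ6983 mice. The AZ6983 mice spanned the controls, with 1 above and 1 below all of them. Icam1 had a log2FC of 0.10 (95% interval −0.16 to 0.36, adjusted p = 0.775 from edgeR), and between 0.026 without A6 and 0.17 without C4. Icam2 (chr11:106377656-106388075, minus strand), the form of resting endothelium and platelets, was at 17.7, 21.1 and 22.8 CPM in controls and at 17.1, 20.4 and 23.7 in AZ6983 mice. Its highest value was 1.39 times its lowest over the 12 mice, against 3.70 times for Sele and 3.04 times for Vcam1. Its log2FC was −0.02, with a 95% interval of −0.23 to 0.19.

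Madcam1 (chr10:79664559-79668537, plus strand) had 0 counts in 10 of 12 mice, 1 count in A1 and 4 in A4. In a mouse at 0, up to 3 counts are allowed by counting error alone. Over the 10 mice at 0 this is a level of 0.102 CPM (C6) to 0.123 CPM (A5). No difference was detectable at this depth, and no fold change is given.

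The ligand Cx3cl1 (chr8:94772009-94782427, plus strand) was at 14.7, 16.2 and 27.5 CPM in controls and at 11.3, 14.6 and 21.5 in AZ6983 mice. Mouse C6 was the highest and A5 the lowest, as for Sele and Vcam1. Cx3cl1 had a log2FC of −0.25 (95% interval −0.63 to 0.14, adjusted p = 0.607 from edgeR), and −0.09 without C6. With the endothelial score as a covariate it was 0.11. Its receptor Cx3cr1 (chr9:119901616-120069879, minus strand) was at 2.86, 5.45 and 9.76 CPM in controls and at 3.31, 5.05 and 6.87 in AZ6983 mice, on 77 to 287 counts. All AZ6983 mice lay within the range of the controls. Cx3cr1 had a log2FC of −0.17 (95% interval −0.71 to 0.38, adjusted p = 0.826 from edgeR), and 0.05 without C6, so its direction rests on that mouse. The GENCODE M21 span of Cx3cr1 overlaps 9 other genes, and reads shared with them may be missing from its count.

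F11r (chr1:171437535-171464603, plus strand) was at 33.6, 37.2 and 41.3 CPM in controls and at 32.7, 35.8 and 45.3 in AZ6983 mice. Mouse A5, lowest in Vcam1, Sele and Cx3cl1, was the highest in F11r, and the other 5 AZ6983 mice lay between 32.7 and 36.6. A5 and C4 both had 1109 counts of F11r, with 29275555 and 26818096 counts on genes. Their order, 45.3 against 41.3 CPM, therefore depends on the TMM factor of A5, 0.837. F11r had a log2FC of −0.03 (95% interval −0.21 to 0.14, adjusted p = 0.904 from edgeR). Without A5 it was −0.12 (SE 0.0644), with an adjusted p of 0.439 from edgeR, and with the endothelial score as a covariate −0.18 (SE 0.0696), with an adjusted p of 0.193. For Icam1, Icam2, Selp and F11r the intervals leave room for differences of at most 0.46 on the log2 scale in either direction.

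**Figure D3:**
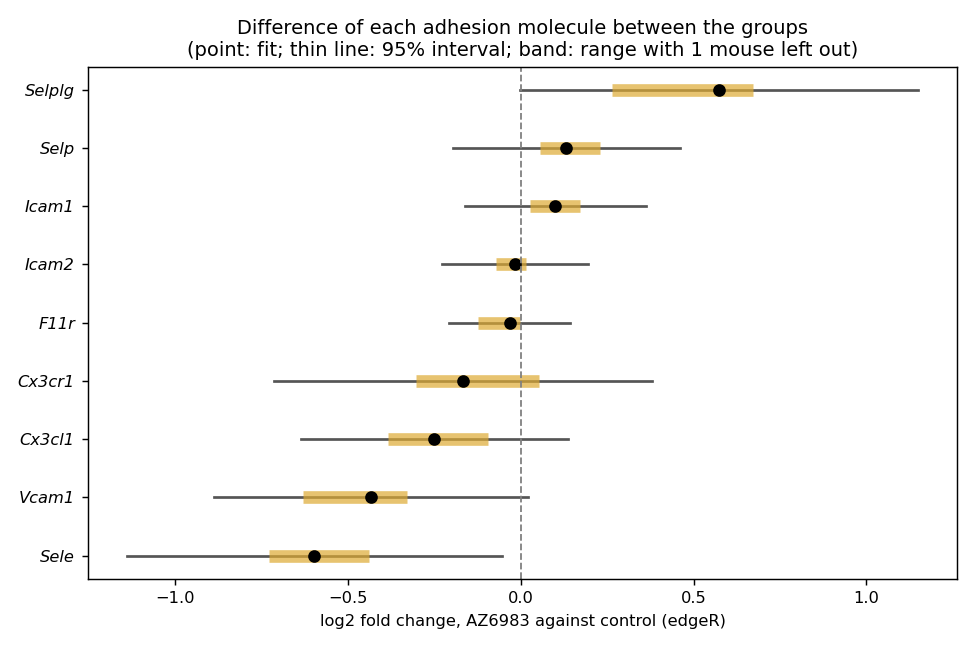
Log2 fold change of AZ6983 against control (x axis) for the 9 genes tested (y axis), with edgeR's estimate as a point, its 95% interval as a thin line and the range over the 12 fits without 1 mouse as a band. The interval of Sele, −1.14 to −0.05, excludes 0 without adjustment for the 15857 genes tested.

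The genes differed in how they followed each other from mouse to mouse. Correlations of log2 CPM were computed for all 36 pairs of the 9 genes over the 12 mice, a family chosen after the data were seen, with permutation tests of the pairing (two-sided, 100000 resamples) and Benjamini-Hochberg adjustment over the pairs. An adjusted p under 0.10 was found for 6 pairs. Vcam1 and Cx3cl1 were the closest pair, with Pearson's r = 0.883 (permutation p = 0.00011, adjusted 0.00396) and Spearman's rho = 0.818 (permutation p = 0.00174). Without C6 and A5, the 2 mice farthest from the median of Vcam1, r was 0.870. Within the controls alone r was 0.886, and within the AZ6983 mice 0.952, with p = 0.00139 and 0.0306 by exact permutation.

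Icam1 and Selp formed another pair, with r = 0.846 (permutation p = 0.00115, adjusted 0.0181) and rho = 0.860 (permutation p = 0.00069). Without A5 and A6 r was 0.826, and within controls and AZ6983 mice it was 0.865 and 0.822 (exact permutation p = 0.0458 and 0.0444). Sele followed Cx3cl1 with r = 0.793 (permutation p = 0.00151, adjusted 0.0181) and rho = 0.678 (permutation p = 0.0185), and r was 0.502 without C6 and A5. Sele also followed Vcam1 with r = 0.766 (permutation p = 0.00359, adjusted 0.0323) and rho = 0.601 (permutation p = 0.0432), with r = 0.516 without the same mice. These relations of Sele rest in part on C6 and A5. Sele and Selp had r = 0.525 over the 12 mice (permutation p = 0.0809, adjusted 0.275). Within controls and AZ6983 mice that r was 0.840 and 0.890 (exact permutation p = 0.0569 and 0.0347). Icam1 and Sele had r = 0.518 (permutation p = 0.0839, adjusted 0.275). Within controls and AZ6983 mice their r was 0.723 and 0.902 (exact permutation p = 0.111 and 0.0222). Vcam1 and Icam1, both induced by cytokines, had r = 0.284 (permutation p = 0.374, adjusted 0.585) and rho = 0.210 (permutation p = 0.515). F11r ran against Cx3cr1, with r = −0.745 (permutation p = 0.00621, adjusted 0.0447) and rho = −0.601 (permutation p = 0.0432), and r was −0.721 without C4 and C6. The sixth pair was Cx3cl1 and its receptor Cx3cr1, with r = 0.686 (permutation p = 0.0153, adjusted 0.0918) and rho = 0.462 (permutation p = 0.133), which was 0.235 without C6 and A2 and so rests on those mice.

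**Figure D4:**
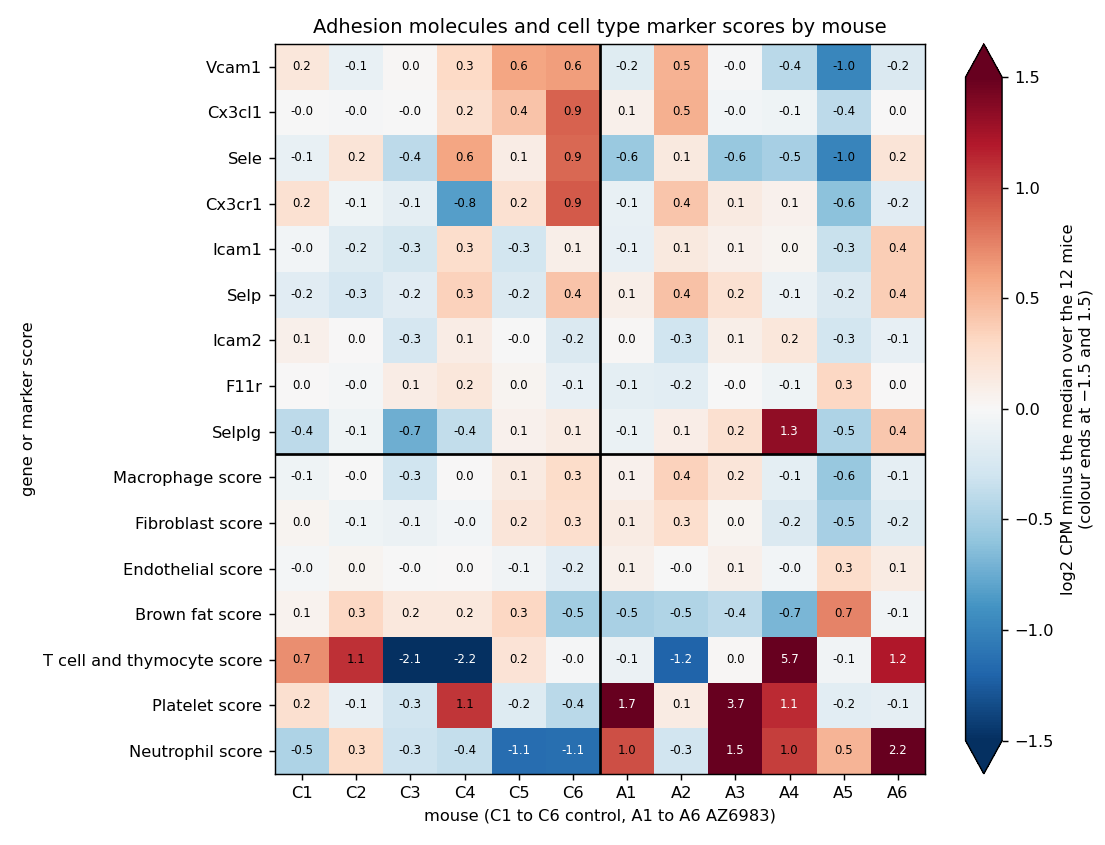
Log2 CPM of the 9 genes tested and scores of 7 marker lists (rows) in each mouse (columns), minus the row's median over the 12 mice, as colour and number. Vcam1, Cx3cl1 and Sele are high in C6 and low in A5, where the brown fat score is high, and Selplg and the T cell and thymocyte score are highest in A4.

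A second family of 22 relations set the genes against scores of cell type markers and, in 4 relations, against another of the 9 genes. An adjusted p under 0.10 was found for 8. Among them was Cx3cl1 with Cx3cr1 (permutation p = 0.0153, adjusted 0.0641 here), a pair also counted above. The macrophage score, from 5.14 to 5.72 in controls and 4.88 to 5.79 in AZ6983 mice, followed Vcam1 (r = 0.820, permutation p = 0.00136, adjusted 0.0202, rho = 0.713, permutation p = 0.0116). Without A2 and A5 this r was 0.585, and within controls and AZ6983 mice it was 0.777 and 0.968 (exact permutation p = 0.0625 and 0.00139). Cx3cr1 had r = 0.661 with the same score (permutation p = 0.0204, adjusted 0.0641, rho = 0.685, permutation p = 0.0167) and 0.502 without those mice. Selplg had r = 0.254 with the macrophage score (permutation p = 0.413, adjusted 0.606). Within controls and AZ6983 mice its r was 0.933 and 0.151 (exact permutation p = 0.00417 and 0.779). The 10 macrophage markers themselves had a median log2FC of −0.02, with 0 of 10 at an unadjusted p under 0.05.

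The endothelial score, from 5.93 to 6.14 in controls and 6.06 to 6.36 in AZ6983 mice, ran against Vcam1 with r = −0.814 (permutation p = 0.00199, adjusted 0.0202, rho = −0.692, permutation p = 0.0159) and against Cx3cl1 with r = −0.788 (permutation p = 0.00355, adjusted 0.0202, rho = −0.517, permutation p = 0.0888). Without C6 and A5 these values were −0.486 and −0.388, so both rest in part on those mice. Sele had r = −0.655 with this score (permutation p = 0.0197, adjusted 0.0641, rho = −0.420, permutation p = 0.177), which was −0.063 without C6 and A5 and so rests on them. Of the 12 endothelial markers, 9 had a log2FC above 0, beside 52.4% of all genes tested, and their median was 0.14. At an unadjusted p under 0.05 in edgeR 2 of the 12 were higher, beside 7.38% of all genes tested. Icam2, made by endothelium at rest, had r = −0.152 with the score (permutation p = 0.647, adjusted 0.703, rho = −0.0839, permutation p = 0.801). With the platelet score Icam2 had r = 0.583 (permutation p = 0.0322, adjusted 0.0886, rho = 0.713, permutation p = 0.0121), and 0.721 without A1 and A3. Selplg followed the T cell and thymocyte score (r = 0.842, permutation p = 0.00368, adjusted 0.0202, rho = 0.594, permutation p = 0.0443), and r was 0.502 without C4 and A4. With 1 mouse far from the rest, the relation of Selplg rests on A4. Mouse A5 also had the highest brown fat score, 8.76, where the other AZ6983 mice were at 7.32 to 7.95, and a fibroblast score of 8.07, the lowest of all. Tissue makeup was entered into the comparison of Vcam1, Sele and Cx3cl1 through the endothelial score alone, in which A5 was highest and C6 lowest. The score of A5 includes its TMM factor of 0.837, against 0.987 to 1.07 in the other mice. No score without that scaling was computed, so its share in the place of A5 was not tested. The brown fat and fibroblast scores were not tested in this way.

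**Figure D5:**
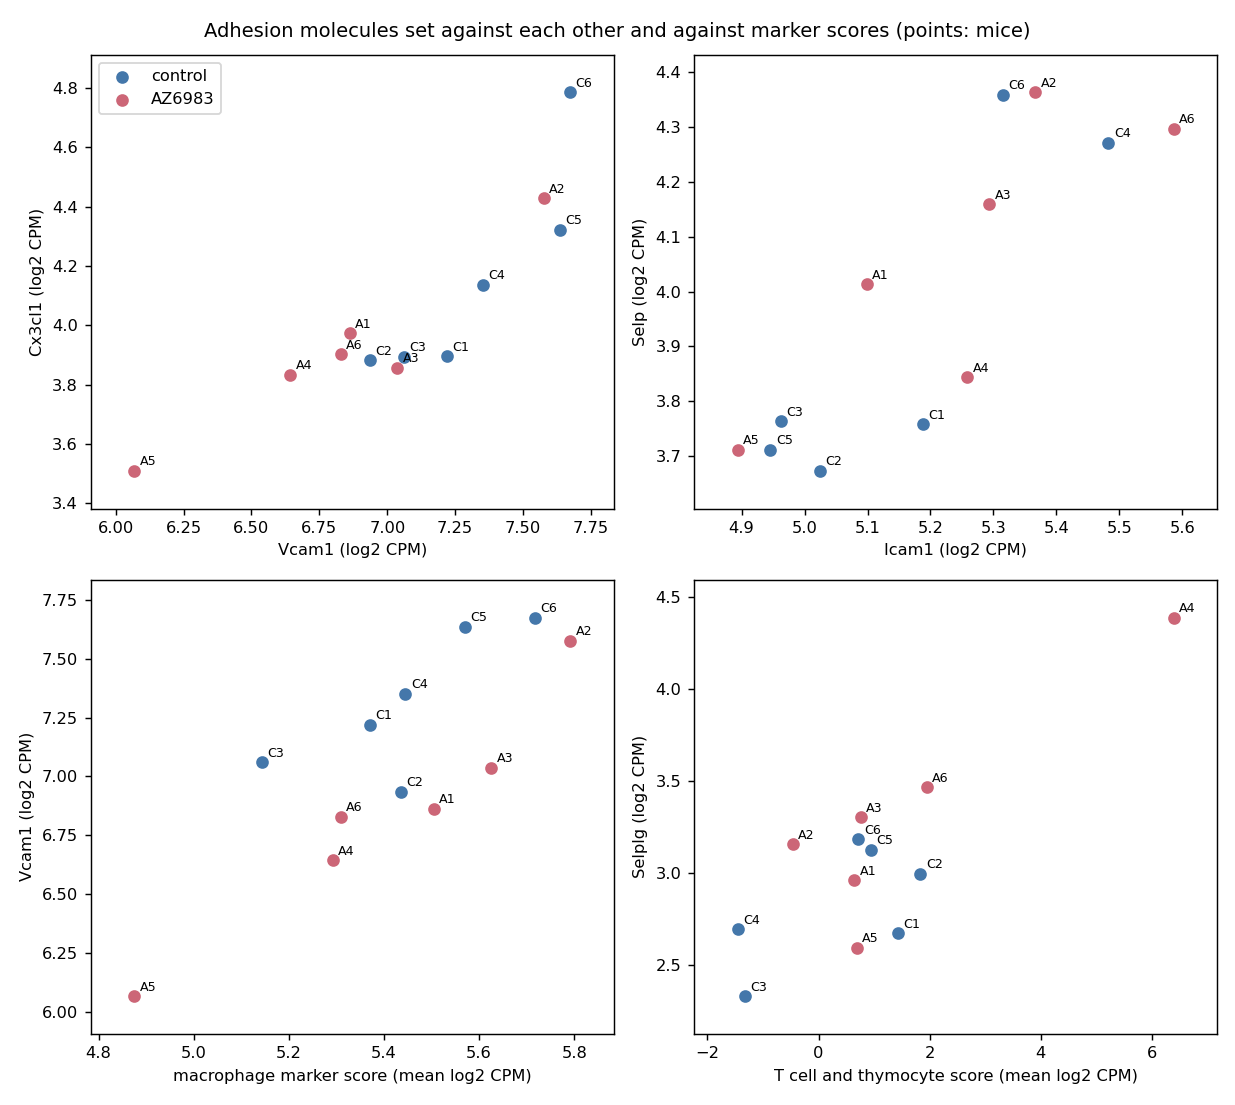
Each point is a mouse, coloured by group. The panels set Cx3cl1 against Vcam1 (r = 0.883), Selp against Icam1 (r = 0.846), Vcam1 against the macrophage score (r = 0.820) and Selplg against the T cell and thymocyte score (r = 0.842), all in log2 CPM or mean log2 CPM, and A4 stands alone in the last panel.

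As a description, the genes whose log2 CPM over the 12 mice was most like that of each member were listed by Pearson's r. For Sele the first were Ccl2 (r = 0.927) and Cxcl1 (r = 0.878), chemokines of monocytes and neutrophils that inflammatory cytokines induce. Ccl2 was at 2.21 to 4.22 CPM in controls and 1.51 to 3.06 in AZ6983 mice. Its log2FC was −0.53 (SE 0.214) and that of Cxcl1 −0.61 (SE 0.353), with adjusted p of 0.462 and 0.548 from edgeR. Vcam1 was most like Tnfrsf11b (r = 0.964), which encodes osteoprotegerin, Frzb (0.954), which encodes a secreted Wnt antagonist, and Lum (0.950), a proteoglycan of fibroblasts. Cx3cl1 was most like Gpr35 (0.922), the other membrane-bound chemokine Cxcl16 (0.922) and Sgms2 (0.921). Selplg was most like Rgs14 (0.954), Cytip (0.947) and Tnfaip3 (0.946), an inhibitor of NF-kB. Selp was most like Rsg1 (0.942), Icam1 like Gm17296 (0.868), with Selp next, Icam2 like Phf5a (0.899), Cx3cr1 like Susd3 (0.934) and F11r like the mitochondrial ribosomal gene Mrpl4 (0.960). The points share libraries and, in part, the outlying mice named above.

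The partners of these molecules on leukocytes were higher in AZ6983 mice for some integrin genes, without passing 10% FDR. Itgal, the alpha chain of the main leukocyte integrin for Icam1, was at 1.67, 2.83 and 6.40 CPM in controls and at 3.80, 6.25 and 27.6 in AZ6983 mice, with the highest value in A4. Itgal had a log2FC of 1.49 (SE 0.509), with an adjusted p of 0.450 from edgeR, and 0.79 (SE 0.345) without A4. Itga4, the alpha chain that binds Vcam1 and Madcam1, was above the control median in all 6 AZ6983 mice and above every control in 4, with a log2FC of 0.47 (SE 0.196, adjusted p = 0.466 from edgeR) and 0.37 without A4.

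The shared beta chains differed less, with a log2FC of 0.00 for Itgb2, −0.13 for Itgb1 and 0.23 for Itgb7, the smallest adjusted p in edgeR being 0.660. Itgam, the alpha chain of myeloid cells, had −0.02, and Itgax, an alpha chain of dendritic cells and foam cells, −0.68 (SE 0.440, adjusted p = 0.582 from edgeR). For the E-selectin ligands Cd44 and Glg1 the log2FC values were 0.01 and 0.00. Itgad did not pass the filter.

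A list of 67 other genes of the adhesion cascade, 62 of them tested, had 0 genes at 10% FDR in edgeR, with 8 higher and 0 lower at an unadjusted p under 0.05 beside 7.38% and 2.81% of all genes. Its median log2FC was 0.07, and 42 of 62 were above 0, beside 52.4% of all genes tested. Without A4 the 8 became 6, beside 7.04% of the genes tested without that mouse. The smallest p values belonged to St3gal6, a sialyltransferase that makes selectin ligands (log2FC 0.42, SE 0.135, adjusted p = 0.447 from edgeR), Itgal and Apbb1ip, an adaptor of integrin activation (0.61, SE 0.210, adjusted p = 0.450). Of the 8 NF-kB regulators 7 had a log2FC above 0, with a median of 0.19 and 2 at an unadjusted p under 0.05. The inducers and their receptors, with 0 of 7 at that level, had a median of 0.07, the 3 sheddases −0.05, the 9 selectin ligand enzymes −0.03, and the 11 other junction and adhesion molecules 0.05.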

How the data were processed

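Thoracic aorta RNA of 12 mice, 6 per group by the sample titles, was depleted of ribosomal RNA and sequenced as stranded, paired reads. The authors deposited raw counts per gene symbol, without normalization, in a table of 25284 genes. Per the submitters' processing notes STAR 2.5.2b, HTSeq 0.6.1p1, CASAVA 1.8.2 and the build mm10 were used; the annotation and the strand setting of the counting are not given in the sources used here, so reads of antisense neighbours (Gm43109 at Vcam1, Gm47079 at Icam1, Gm16587 and Gm16548 at Selp) cannot be told apart. Another 3 rows name no gene and were left out: reads on no gene (8.02% to 14.9%), aligned to several places (18.1% to 23.2%) or ambiguous (0.606% to 0.698%). Total RNA includes unspliced transcripts.

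AZ6983 was compared with control by edgeR 4.0.16 in R 4.3.3 (TMM, filterByExpr, quasi-likelihood test, no covariate, Benjamini-Hochberg over 15857 genes, 10% FDR). The standard error is the absolute log2 fold change over the root of F. Alternatives were RLE factors, no filter, a mean of 50 counts, DESeq2 1.42.0, limma-voom (limma 3.58.1) with and without weights, 5% FDR, the share of reads on no gene or the endothelial score as covariate, and each mouse left out. Leaving out A4 and A5 together was added after seeing the data. On simulated counts of the same comparison with 200 genes changed 2-fold, edgeR recovered 132 with 10 false calls among 15692 genes at 10% FDR. DESeq2 recovered 138 with 46 among 15857. The simulated spread followed edgeR's trend over expression level, without the extra spread of single genes, outlying mice or the scaling of A5. The recovery is therefore not the power of the real comparison.

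The members, lists and tests were chosen with earlier results of these data known. Named are all members, their fixed partners (1 is not reported here), the 3 cascade genes of smallest p, the genes most like each member, and Apoe and Chrna7. Nectin2 was matched as Pvrl2. The authors give the room conditions, but nothing says which mice shared a cage or were processed together, so their independence could not be checked. The p-values of edgeR set the difference of the groups against the spread between mice within them. Intervals of log2FC rest on the same spread, and the floor of 3 counts covers counting error only. Positions and lengths are from GENCODE M21 and promoters from RefSeq, both on GRCm38, the build mm10 names.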

Additional observations from a re-analysis of the deposited data

Results flagged for a closer look

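Each member gene, each marker score and the percentage of reads outside genes was examined within either treatment, which made 42 sets of 6 mice. In 4 of them 1 mouse lay far from the remaining 5, and by chance about 1 in 20 sets, or 2.1 of 42, would be picked out. Among AZ6983 mice, F11r was highest in A5 at 5.504 log2 CPM, while the others lay between 5.04 and 5.20. The value of A5 includes its TMM factor of 0.837. A4 had a T cell and thymocyte score of 6.39, the other AZ6983 mice lying between −0.47 and 1.94. For brown fat, control C6 scored 7.49 and the other controls 8.065 to 8.32. For white fat, control C2 scored 7.26 and the other controls 6.37 to 6.67.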

How the results depend on the processing

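Of 189 log2 fold changes of the 9 members under alternatives, 177 kept their direction and their side of 10% FDR and 11 changed direction. With the percentage of reads outside genes as a covariate Icam2 was at 0.12, F11r at 0.034, Sele at −1.06 and Vcam1 at −0.67, each with an adjusted p of 0.9998 in edgeR, and with voom weights Cx3cr1 was at 0.0069. The endothelial score as a covariate gave 463 genes at 10% FDR, among them 1 member, Selplg (0.96, adjusted p = 0.0854, over all its alternatives 0.0854 to 0.9998), and 1 cascade gene, Tnfaip3. In that fit Icam2 was at 0.016, Cx3cl1 at 0.11, Cx3cr1 at 0.34 and Vcam1 at −0.04. Sele was there at −0.30, Selp at 0.31 and F11r at −0.18. A5 has the highest score, which includes its TMM factor of 0.837, and C6 the lowest. Genes at 10% FDR numbered 92 in DESeq2 and 4 with voom weights, and 0 to 27 with a mouse left out, the most without A5, with 1 without C6 or without A1. Members and cascade genes at 10% FDR stayed at 0 with any mouse left out. Over these fits Icam2 lay between −0.072 and 0.015, above 0 without C1, C4, A2 or A5, and Cx3cr1 between −0.30 and 0.054. The number of the 22 relations at an adjusted p under 0.10, 8 with all mice, was 4 with Spearman's rho and 1 to 9 with a mouse left out, being 1 without A5, 3 without C6 and 4 without A2. Without A4 and A5 together Sele was at −0.44, Vcam1 at −0.24 and Selplg at 0.36. No paired analysis was possible because the numbers 1 to 6 of the mice follow accession order and pair nothing. Sele, Cx3cr1 and Selplg rest on the fewest counts and have the widest intervals.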

Other observations

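The remaining marker lists are set beside all genes tested, of which 7.38% were higher and 2.81% lower at an unadjusted p under 0.05. No gene of these lists passed 10% FDR in edgeR. Smooth muscle markers had scores of 10.5 to 10.96 in controls and 10.2 to 10.9 in AZ6983 mice, with 0 of 5 at an unadjusted p under 0.05. No fibroblast marker (0 of 4) and no B cell marker (0 of 4) reached that level. Of the lymphatic endothelial markers 1 of 4 was higher, of the brown fat markers 1 of 5 was lower, and of the white fat markers 1 of 5 was higher and 1 lower. The brown fat score was 8.065 to 8.32 in controls but C6, at 7.49, and 7.32 to 7.95 in AZ6983 mice but A5, at 8.76. Elovl3 and Ucp1 each had 5 AZ6983 mice below every control, Cox8b had 2, and Cidea and Ppargc1a had 0.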
